A study of Mus musculus with 15 samples.

Results

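Carbonic anhydrases are zinc enzymes that interconvert carbon dioxide and water with bicarbonate and a proton, and thereby set pH and bicarbonate supply on either side of the cell membrane. The mouse family has cytosolic, mitochondrial, secreted, membrane-anchored and transmembrane members, and also related proteins that lost the catalytic zinc site. In most tissues a cytosolic enzyme works next to a membrane-bound one and to bicarbonate and proton transporters. The data described here cover 8 members of the family: the cytosolic enzymes Car2, Car7 and Car13, the GPI-anchored enzyme Car4, which faces the outside of the cell, the transmembrane enzymes Car12 and Car14, and the acatalytic related proteins Car8 and Car11. They were picked by gene symbol out of the 55228 genes listed in the files, which hold 16 carbonic anhydrase genes in all, and the family was chosen because Car4 rises with time under Smarcb1 knockdown. The rise of Car4 in knockdown cells is therefore given as a description and carries no p-value. The other 8 carbonic anhydrase genes are described beside the members.

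The study asked what the loss of Smarcb1, which belongs to the core of the BAF complex that remodels chromatin, does to gene expression in mouse embryonic stem cells (mESC). All 15 RNA-seq libraries came from 81K1, a line made from clone K1 of OG2 mESC, which carries an anti-Smarcb1 shRNA cassette in the Rosa26 locus under a doxycycline-dependent promoter. The 48 h ctrl and 240 h ctrl groups were untreated cells with the same cassette, and the 48 h kd, 72 h kd and 240 h kd groups received doxycycline at 1 µg/ml for that time. Each group had 3 libraries. The line is a single clone, and cells that lack the shRNA but received doxycycline were not analysed here, so effects of doxycycline and of the knockdown cannot be told apart. The labels number the replicates but do not say whether they are separate cultures, so p-values measure the spread between these libraries only.

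The libraries held 11074998 to 14515300 reads in genes. Levels are given as RPM, the reads of a gene scaled to a library total of 1000000 reads in genes, recovered from the deposited FPKM values, with the mean ± SD over n = 3 libraries. A gene was called changed at a limma adjusted p under 0.05 together with a log2 fold change beyond 0.58 in either direction, which are the thresholds of the study. Smarcb1 itself stood at 84.7, 86.0 and 97.8 RPM in the 48 h ctrl libraries and at 82.2, 88.3 and 84.5 RPM in the 240 h ctrl libraries. It stood at 12.5, 20.4 and 15.4 RPM at 48 h kd, at 13.4, 15.9 and 12.7 RPM at 72 h kd and at 17.9, 15.4 and 15.9 RPM at 240 h kd, and no knockdown library overlapped a control library. The 8 stem cell markers summed to 5590 to 5860 RPM at 48 h ctrl, 5190 to 5850 RPM at 48 h kd, 6240 to 6440 RPM at 72 h kd, 5210 to 5630 RPM at 240 h ctrl and 4570 to 4630 RPM at 240 h kd, so that 72 h kd lay above and 240 h kd below every other group. Of these markers 1, 1 and 3 fell at 48 h, 72 h and 240 h, beside 4.88%, 9.55% and 7.9% of all tested genes, while 1 rose at 72 h, beside 12%. A pair of libraries stood apart from the others of their groups. Replicate 2 of 48 h kd gave a chi-square over its degrees of freedom of 10.2 and 8.27 against its partners, and 2.53% of its reads were mitochondrial. Replicate 3 of 240 h ctrl gave 8.05 and 4.60, with 0.507% mitochondrial reads, while the pairs without these libraries gave 1.27 to 4.09.

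The RefSeq promoter table for GRCm38.p6 holds 5 of the 8 members: Car4, Car7, Car11, Car12 and Car14. Car2, Car8 and Car13 have no entry. The 250 bases upstream of the start of Car4 and of Car14, the membrane enzymes whose levels moved most in the knockdown, are shown 5′ to 3′ on the strand of the gene with each CpG in capitals. The Car4 window lies at chr11:84957504-84957753 on the plus strand and the Car14 window at chr3:95904686-95904935 on the minus strand.
Car4: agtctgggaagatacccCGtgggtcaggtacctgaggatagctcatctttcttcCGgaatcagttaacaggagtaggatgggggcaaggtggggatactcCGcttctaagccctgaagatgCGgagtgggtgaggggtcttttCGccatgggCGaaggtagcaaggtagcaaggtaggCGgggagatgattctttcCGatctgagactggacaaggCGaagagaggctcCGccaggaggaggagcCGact
Car14: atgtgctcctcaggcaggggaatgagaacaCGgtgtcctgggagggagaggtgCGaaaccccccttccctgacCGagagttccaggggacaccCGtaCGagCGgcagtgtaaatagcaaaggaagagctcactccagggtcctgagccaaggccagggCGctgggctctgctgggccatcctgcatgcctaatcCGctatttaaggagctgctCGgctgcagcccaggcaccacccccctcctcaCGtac

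The Car4 window has 11 CpG and 56.4% GC, and the Car14 window has 10 CpG and 62% GC, beside medians of 6 CpG and 52.4% GC over the 32851 promoter windows of the table. With 11 CpG, Car4 has at least as many as 66.5% of all windows. A set of 5 short motifs were searched on both strands, and none of them contains another. TATAAA, the TATA box core, occurs in 12.4% of all windows, CCAAT in 33.8%, the GC box GGGCGG in 32.7%, the AP-1 site TGACTCA in 4.46% and ACGTG, the core of the hypoxia response element, in 16.6%. The Car4 window held none of the 5, and the Car14 window held ACGTG once. The 3′ end of the Car14 window reaches into the gene span used here (chr3:95897768-95904691), and most of this match lies there. These matches describe the letters in the windows only.

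Car2, a fast cytosolic enzyme found in many cell types, was the most abundant member in every group and rose at all 3 knockdown times. The gene (ENSMUSG00000027562.12) spans chr3:14886273-14900770 on the plus strand in mm10, and the authors counted reads over the whole span, introns included. Car2 stood at 106, 107 and 108 RPM in the 48 h ctrl libraries (107 ± 1.16, SD, n = 3) and at 113, 115 and 132 RPM in the 240 h ctrl libraries (120 ± 10.5, SD, n = 3). In the knockdown it stood at 211, 195 and 224 RPM after 48 h, at 312, 319 and 327 RPM after 72 h and at 531, 585 and 574 RPM after 240 h. The lowest knockdown library was above the highest control library, and the 3 knockdown times did not overlap each other. These values rest on 1182 to 8489 reads a library. The ratio of means was 1.96 at 48 h (log2 fold change 0.97 ± 0.06 SE, limma adjusted p = 1.78e-07), 2.99 at 72 h (1.58 ± 0.04 SE, limma adjusted p = 7.01e-21) and 4.71 at 240 h (2.24 ± 0.06 SE, limma adjusted p = 1.48e-14).

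The effect on Car2 was larger at 240 h than at 48 h. The difference between both log2 fold changes was 1.26 ± 0.09 SE (limma interaction adjusted p = 1.15e-08). Car2 was also higher at 72 h kd than at 48 h kd, a comparison in which no control library takes part, by 0.61 ± 0.05 SE in log2 units (limma adjusted p = 5.24e-06). Without 48 h kd replicate 2 this value was 0.55 (limma adjusted p = 1.6e-12) and with median centring 0.55 (limma adjusted p = 1.82e-05), both under the fold threshold. Between both control groups Car2 differed by 0.16 ± 0.06 SE (limma adjusted p = 0.0774) and was not called.

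**Figure D1:**
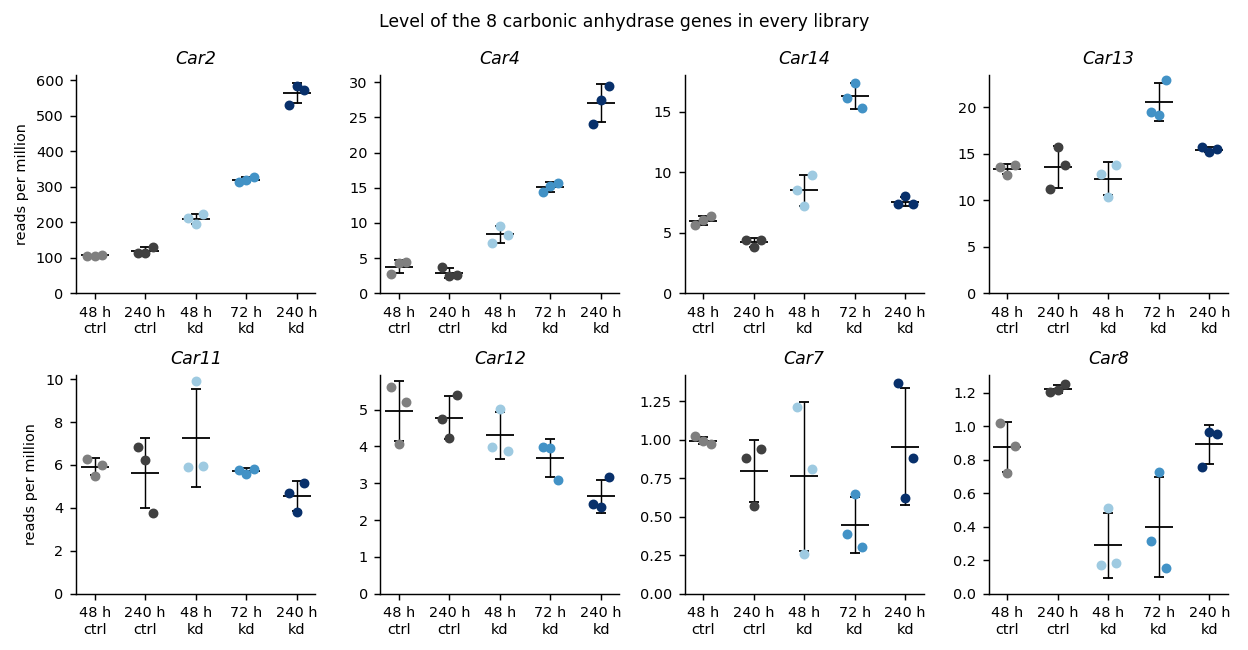
Level of the 8 carbonic anhydrase genes in RPM (y axis, linear, from 0) in each of the 15 libraries (points), by group (x axis), with the group mean (horizontal line) and SD (error bar, n = 3). Car2 and Car4 are highest at 240 h kd (563 and 27.0 RPM on average), Car14 and Car13 are highest at 72 h kd (16.3 and 20.5 RPM), and Car12 is lowest at 240 h kd (2.64 RPM).

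Car4, the gene on which the family was chosen, was low in control cells and higher at each knockdown time. The gene (ENSMUSG00000000805.18) spans chr11:84957786-84966044 on the plus strand. It stood at 2.7, 4.33 and 4.42 RPM in the 48 h ctrl libraries (37, 48 and 50 reads) and at 3.78, 2.52 and 2.58 RPM in the 240 h ctrl libraries (47, 31 and 33 reads). In the knockdown it stood at 7.21, 9.64 and 8.31 RPM after 48 h, at 14.4, 15.3 and 15.7 RPM after 72 h and at 24.1, 27.5 and 29.4 RPM after 240 h, where 318 to 401 reads were counted. The 3 knockdown groups did not overlap each other or the controls. The ratio of means was 2.2 at 48 h, 3.97 at 72 h and 9.13 at 240 h. On the log2 scale the difference was 1.12 ± 0.19 SE, 1.97 ± 0.15 SE and 3.13 ± 0.14 SE, with no test. Leaving out each library in turn gave 0.90 to 1.24, 1.74 to 2.08 and 3.03 to 3.30. The 72 h value set against the 240 h ctrl libraries was 2.30, and the 240 h value was 2.83 with a pseudocount of 1 RPM. Control cells gave the only comparison in which Car4 could be tested. There the 240 h libraries were lower than the 48 h libraries by 0.34 ± 0.21 SE on the log2 scale (limma adjusted p = 0.322, 95% interval -0.79 to 0.12), and the groups overlapped.

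The ratio of Car2 to Car4 was followed library by library. Car2 was 24.5 to 39.3 times the RPM of Car4 in the 48 h ctrl libraries, 29.8 to 51.1 times in the 240 h ctrl libraries, 20.2 to 29.3 times at 48 h kd, 20.8 to 21.7 times at 72 h kd and 19.5 to 22.0 times at 240 h kd. These are ratios of RPM and are not corrected for length.

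Car14, a transmembrane enzyme with its active site outside the cell, was highest at 72 h kd. It spans chr3:95897768-95904691 on the minus strand (ENSMUSG00000038526.14). It stood at 5.61, 6.04 and 6.36 RPM at 48 h ctrl, at 4.42, 3.82 and 4.38 RPM at 240 h ctrl, at 8.51, 7.25 and 9.75 RPM at 48 h kd, at 16.2, 17.4 and 15.3 RPM at 72 h kd and at 7.36, 8.06 and 7.34 RPM at 240 h kd. No knockdown library overlapped the control group it was compared with, and all of them were higher. No 72 h control group was analysed here, so the effect at 72 h is taken against 48 h ctrl unless another group is named. Car14 rose at 72 h (log2 fold change 1.41 ± 0.11 SE, limma adjusted p = 5.25e-11) and at 240 h (0.82 ± 0.14 SE, limma adjusted p = 9.28e-05). The value for 48 h was 0.48 ± 0.14 SE (limma adjusted p = 0.0244), under the fold threshold. Without 48 h kd replicate 2 it was 0.59 (limma adjusted p = 0.00322), which passed. Car14 rose further from 48 h kd to 72 h kd (0.93 ± 0.12 SE, limma adjusted p = 7.7e-05). The mean at 240 h kd was 46.6% of the mean at 72 h kd, and the libraries of these groups did not overlap. Between the control groups Car14 differed by -0.50 ± 0.14 SE (limma adjusted p = 0.0316), under the fold threshold, and the effects at 240 h and 48 h differed by 0.34 ± 0.18 SE (limma adjusted p = 0.205).

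One end of Car14 overlaps Aph1a, a gamma-secretase subunit gene on the opposite strand at chr3:95893969-95898288. Whether the counting used strand is not given in the sources used here, so reads in the overlap cannot be assigned to either gene. The log2 fold changes of Aph1a were 0.02 at 48 h, 0.46 at 72 h and 0.03 at 240 h, and none was called. The 72 h value lay under the fold threshold, with a limma adjusted p of 2.28e-05. From 48 h kd to 72 h kd Aph1a changed by 0.43 (limma adjusted p = 0.000816), also under the fold threshold. Its part in the result was not tested.

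Car12, the other transmembrane member, fell at 240 h. It spans chr9:66713686-66766845 on the plus strand. Its levels were 5.61, 4.06 and 5.21 RPM at 48 h ctrl, 4.74, 4.22 and 5.39 RPM at 240 h ctrl, 3.99, 5.03 and 3.88 RPM at 48 h kd, 3.98, 3.97 and 3.09 RPM at 72 h kd and 2.43, 2.34 and 3.16 RPM at 240 h kd. The 240 h kd libraries lay below all control libraries. The log2 fold change was -0.82 ± 0.18 SE at 240 h (limma adjusted p = 0.00109), -0.41 ± 0.17 SE after 72 h (limma adjusted p = 0.0387, under the fold threshold) and -0.19 ± 0.18 SE after 48 h (limma adjusted p = 0.45). The 240 h and 48 h effects differed by -0.62 ± 0.24 SE (limma adjusted p = 0.0806). With quantile normalization this difference was -0.68 (limma adjusted p = 0.0485), which passed. Of both transmembrane members, Car14 was called higher and Car12 lower in the same 240 h libraries.

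Car13, a cytosolic enzyme encoded in the same gene cluster as Car2, rose at 72 h by little more than the fold threshold. It spans chr3:14641727-14663002 on the plus strand. Levels were 13.6, 12.7 and 13.8 RPM at 48 h ctrl, 11.2, 15.8 and 13.8 RPM at 240 h ctrl, 12.8, 10.3 and 13.8 RPM at 48 h kd, 19.5, 19.2 and 22.9 RPM at 72 h kd and 15.7, 15.2 and 15.5 RPM at 240 h kd. The 72 h kd libraries lay above all others. The log2 fold change at 72 h was 0.61 ± 0.09 SE (limma adjusted p = 2.34e-06), and it lay between 0.53 and 0.58, under the fold threshold, on the FPKM scale, with median centring, with quantile normalization, without 48 h ctrl replicate 2 and without 72 h kd replicate 3. The values at 48 h (-0.12 ± 0.12 SE, limma adjusted p = 0.485) and at 240 h (0.19 ± 0.11 SE, limma adjusted p = 0.165) were not called. Car13 rose from 48 h kd to 72 h kd (0.73 ± 0.12 SE, limma adjusted p = 0.000362).

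The remaining members gave no call under the main filter of 1 RPM on average over the libraries compared. Car11, a secreted acatalytic relative, lay between 3.75 and 9.89 RPM in all libraries, and its extremes were 240 h ctrl replicate 3 and 48 h kd replicate 2, the libraries that stood apart. The fold changes of Car11 were 0.24 ± 0.19 SE at the earliest time, -0.05 ± 0.14 SE after 72 h and -0.26 ± 0.20 SE after 240 h (limma adjusted p = 0.369, 0.779 and 0.299). Leaving out each library in turn gave 0.0033 to 0.37, -0.098 to -0.0066 and -0.52 to -0.10, all under the fold threshold. The lowest limma adjusted p among these at 240 h was 0.0129. Car8, an acatalytic relative that binds the IP3 receptor, rested on 8 to 16 reads in control libraries, on 2 to 9 reads at 48 h kd and 72 h kd and on 10 to 14 reads at 240 h kd. It averaged 1.22 RPM at 240 h ctrl and 0.893 RPM at 240 h kd. At the earlier times Car8 averaged 0.875 RPM at 48 h ctrl, 0.289 RPM at 48 h kd and 0.397 RPM at 72 h kd. Car7, a cytosolic enzyme known from neurons, rested on 3 to 18 reads a library and passed the main filter nowhere. It averaged 0.995 RPM at 48 h ctrl, 0.797 RPM at 240 h ctrl, 0.761 RPM at 48 h kd, 0.447 RPM at 72 h kd and 0.956 RPM at 240 h kd. Car8 passed the filter at 240 h and between the controls only through 240 h ctrl. A filter of 0.5 RPM would be passed by both genes at 72 h, and by Car8 at 48 h, only through the control group, so no test is given there. Where both groups reached 0.5 RPM, that filter gave no call. Car7 stood at -0.46 ± 0.38 SE at 48 h and 0.18 ± 0.30 SE at 240 h (limma adjusted p = 0.41 and 0.661). Car8 stood at -0.39 ± 0.25 SE at 240 h (limma adjusted p = 0.222). With so few reads, small changes of both genes were not detectable at this depth.

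Counted together without Car4, 5 members passed the filter at 48 h, of which 1 rose and none fell, while 4.21% of the 15669 genes tested passed as higher and 4.88% as lower. After 72 h of knockdown, 3 of 5 rose and none fell, beside 12% higher and 9.55% lower of 15611 genes. At 240 h, 2 of the 5 with at least 1 RPM in both groups rose and 1 fell, beside 9.18% higher and 7.9% lower of 15877 genes. In the control comparison 0 of the 6 members with at least 1 RPM in both groups, Car4 included, were called by limma, beside 0.856% higher and 0.492% lower of 15660 genes, with 1 higher (Car2) and 1 lower (Car14) at an unadjusted limma p under 0.05, beside 13.5% higher and 15.5% lower of all genes, and 0 calls by voom. From 48 h kd to 72 h kd 3 of 5 rose, beside 6.8% higher and 5.73% lower of 15590 genes. With median centring the calls over all genes at 72 h kd against 48 h ctrl changed from 1872 higher and 1491 lower to 1546 higher and 1828 lower, and those from 48 h kd to 72 h kd changed from 1060 higher and 894 lower to 870 higher and 1113 lower. In the test of the difference between the 240 h and 48 h effects 1 of 5 passed, beside 5.47% higher and 5.2% lower of 15781 genes. The median log2 change of these 5 members was 0.24, 0.61 and 0.19 at 48 h, 72 h and 240 h (-0.03 at 240 h with Car8), beside medians of 0.0065, 0.016 and 0.0058 over all genes. At an unadjusted limma p under 0.05, 0 members were lower at 48 h, beside 19.2% of all genes, and 1, Car12, was lower at 72 h, beside 31.6%, and voom called none lower at either time. The 48 h and 72 h comparisons share the 48 h ctrl libraries.

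**Figure D2:**
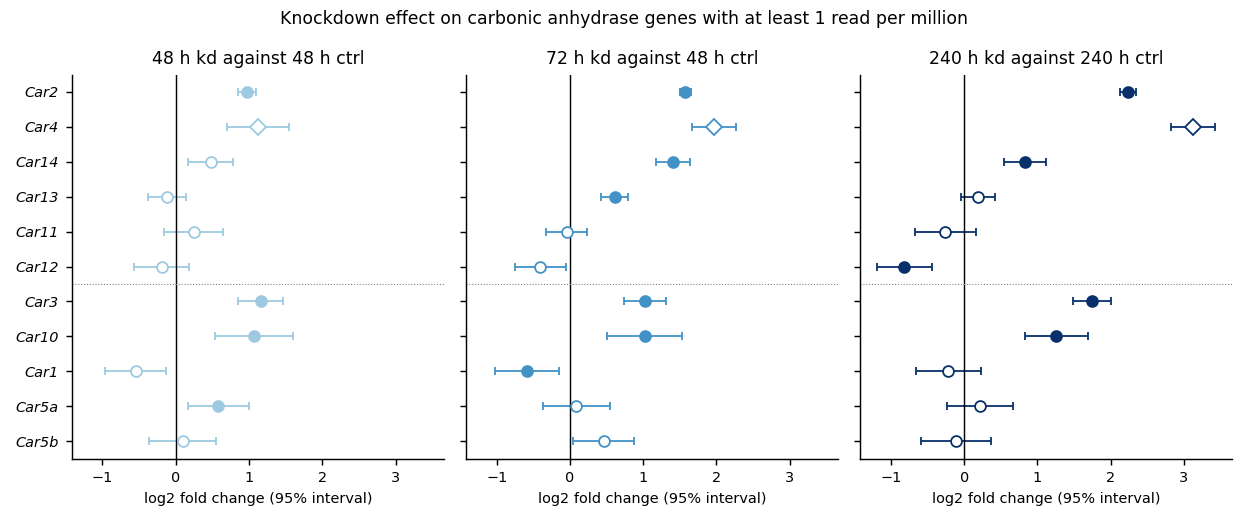
Log2 fold change with its 95% interval (x axis) of 6 members (above the dotted line) and 5 other carbonic anhydrase genes (below it) that passed the 1 RPM filter in all 3 knockdown comparisons (panels). Filled circles passed both thresholds, open circles did not, and the open diamond is Car4, which was not tested. The Car4 interval is a description only. Car10 passed the filter at 48 h and 72 h only through the knockdown groups. Car8 and Car7 are not drawn. Car2 moves from 0.97 to 2.24 and Car4 from 1.12 to 3.13 between the 48 h and 240 h panels, while Car12 reaches -0.82.

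To compare levels between genes, RPM was divided by the exonic length of each gene in kilobases, a scale on which intronic reads still count toward long genes. In the 48 h ctrl libraries the order of mean levels was Car2 (44.1 RPM per exonic kb), Car13 (5.81), Car11 (3.08), Car14 (2.36), Car4 (1.94), Car12 (0.653), Car7 (0.274) and Car8 (0.227), and the ranges of Car14 and Car4 overlapped. At 240 h ctrl the order of the upper 6 was the same, and Car14 and Car4 again overlapped. At 240 h kd the order was Car2 (232), Car4 (13.7), Car13 (6.72), Car14 (2.98), Car11 (2.36), Car12 (0.348), Car7 (0.263) and Car8 (0.232), and only neighbours among the last 3 overlapped. At 72 h kd Car4 ranked 3 (7.70), between Car13 (8.93) and Car14 (6.41), with no overlap among these 3. At 48 h kd the ranges of Car13 (5.36), Car4 (4.26), Car11 (3.76) and Car14 (3.34) overlapped from one to the next. Car4 thus ranked 5 among the members in both control groups and 2 after 240 h of knockdown.

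Summed over the 8 members, the level was 141 to 146 RPM at 48 h ctrl, 146 to 164 RPM at 240 h ctrl, 238 to 266 RPM at 48 h kd, 373 to 390 RPM at 72 h kd and 587 to 643 RPM at 240 h kd. Car2 made up 74.2% to 75.6% of the sum at 48 h ctrl and 90.2% to 90.9% at 240 h kd. Without Car2 the other 7 members summed to 35.9 ± 1.63 RPM at 48 h ctrl, 33.2 ± 1.12 RPM at 240 h ctrl, 41.8 ± 1.71 RPM at 48 h kd, 62.2 ± 1.46 RPM at 72 h kd and 59.1 ± 3.05 RPM at 240 h kd (SD, n = 3). This sum holds Car4, on which the family was chosen. Without Car4 as well, the other 6 summed to 32.1 ± 1.8 RPM at 48 h ctrl, 30.2 ± 1.38 RPM at 240 h ctrl, 33.4 ± 0.893 RPM at 48 h kd, 47.1 ± 0.777 RPM at 72 h kd and 32.1 ± 1.04 RPM at 240 h kd. In these bulk libraries a larger share of cells that express a gene and more RNA per cell cannot be told apart.

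Among the other 8 carbonic anhydrase genes, Car3 rose at all 3 times and Car10 at 240 h. Car3, a cytosolic enzyme with low activity, is abundant in muscle and fat. It stood at 4.01, 4.06 and 4.06 RPM at 48 h ctrl, at 3.46, 4.06 and 4.45 RPM at 240 h ctrl, at 8.60, 8.44 and 11.02 RPM at 48 h kd, at 7.34, 9.31 and 8.66 RPM at 72 h kd and at 13.6, 14.2 and 13.7 RPM at 240 h kd. The log2 fold changes of Car3 were 1.16 ± 0.14 SE, 1.02 ± 0.14 SE and 1.75 ± 0.13 SE (limma adjusted p = 1e-04, 7.79e-07 and 5.89e-09), and no knockdown library overlapped a control. Car10, an acatalytic relative that is secreted and binds neurexins, had 10 to 17 reads in control libraries and 20 to 49 in knockdown libraries over a span of 503722 bases, and it averaged 1.22 RPM at 240 h ctrl and 3.20 RPM at 240 h kd (log2 fold change 1.26 ± 0.20 SE, limma adjusted p = 8.7e-05). At 48 h ctrl it averaged 0.960 RPM, under the filter, so that at 48 h (2.27 RPM) and 72 h (2.19 RPM) it passed only through the knockdown group, and its log2 fold changes of 1.07 and 1.02 are given as a description.

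The mitochondrial enzyme Car5a was called higher at 48 h alone (0.58 ± 0.19 SE, limma adjusted p = 0.0413), with 18 to 35 reads a library. Its span lies inside that of Gm20388 and overlaps BC048644, so its reads are uncertain. Car1, a cytosolic enzyme known from red cells, was called lower at 72 h (-0.58 ± 0.21 SE, limma adjusted p = 0.0199) with 18 to 41 reads a library. This call lay barely beyond the fold threshold. The values at 48 h (-0.54, limma adjusted p = 0.0542) and 240 h (-0.21, limma adjusted p = 0.423) were not called. Car1 averaged 2.69 RPM at 48 h ctrl, 2.08 RPM at 240 h ctrl and 1.75 RPM at 72 h kd. The second mitochondrial gene, Car5b, was not called. The secreted enzyme Car6, the hypoxia-inducible transmembrane enzyme Car9 and the GPI-anchored enzyme Car15 stayed under the filter. Car9 averaged 0.328 RPM at 48 h ctrl and 1.17 RPM at 72 h kd, on 1 to 6 and 10 to 20 reads a library, and no test is given. Car9 overlaps the antisense gene Gm12454, whose 1 to 9 reads a library cannot be told apart from those of Car9.

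Car13, Car1, Car3 and Car2 lie side by side on chromosome 3, in that order. Within 100 kb of this cluster 13 genes are listed, of which 7 reached 1 RPM over all libraries. Under the filter, the long noncoding RNA gene A930001A20Rik, 70.4 kb beyond Car2 and named after its values were seen, averaged 0.168 RPM at 48 h ctrl, 0.319 RPM at 240 h ctrl, 0.752 RPM at 48 h kd, 0.703 RPM at 72 h kd and 1.22 RPM at 240 h kd. Car2 and Car3, adjacent at one end, were called higher at all 3 times. Car1, next to Car3, and Car13, at the other end, did not share this course. The 3 genes beyond Car13 were not called at any time: the centrosomal gene Lrrcc1 (log2 fold changes of 0.13 at 48 h, 0.06 at 72 h and -0.23 at 240 h), then the transcription factor gene E2f5 (0.00057, 0.13 and 0.08) and Rbis (0.17, -0.40 and -0.11). Around Car4 7 genes are listed within 100 kb and 6 reached 1 RPM. Ggnbp2 (0.17, 0.10 and 0.12), Pigw (0.29, -0.04 and -0.10), Myo19 (0.16, 0.04 and 0.16), Znhit3 (0.04, -0.44 and 0.32) and the ubiquitin protease gene Usp32 (0.46, 0.53 and 0.21) were not called at any time. The largest value near Car4 was therefore that of Usp32 at 72 h, under the fold threshold with a limma adjusted p of 5.06e-10.

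**Figure D3:**
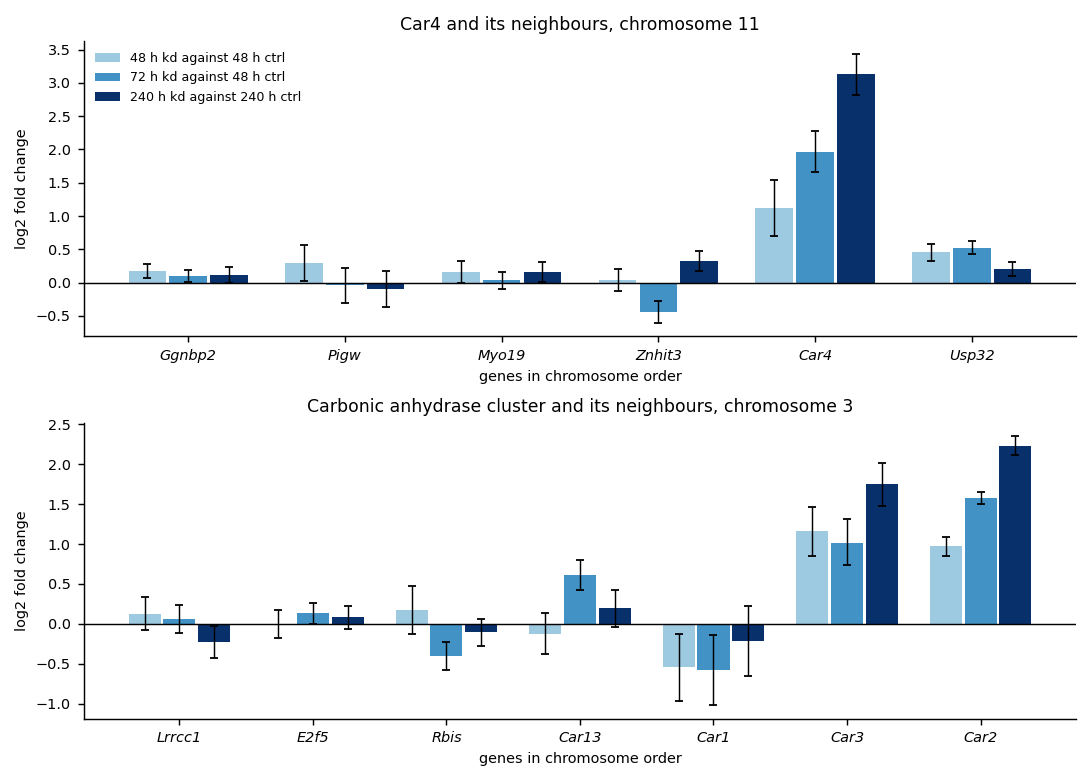
Log2 fold change (y axis) of the genes with at least 1 RPM within 100 kb of Car4 (upper panel) and of the chromosome 3 carbonic anhydrase cluster (lower panel), in chromosome order, for the 3 knockdown comparisons (bars, with 95% intervals). Beside Car4 (up to 3.13) no neighbour passes 0.58, and in the cluster Car3 and Car2 stand above their neighbours at all 3 times. The Car4 bars and intervals are a description only.

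Pearson's r with the log2 level of Car4 over the 15 libraries was ranked among 13181 genes with at least 1 RPM on average. Genes overlapping Car4 and symbols of the form Gm plus digits or ending in Rik were left out of this ranking. The 5 highest were the cationic amino acid transporter gene Slc7a2 (r = 0.987), the sortilin-family receptor gene Sorcs2 (0.981), Fam222a (0.9754), the 5-oxoprolinase gene Oplah (0.974) and Rimkla (0.973), an N-acetylaspartylglutamate synthase gene. The 15 points fall into 5 groups of 3 and share library and depth, so r describes how alike the group courses are. Slc7a2 averaged 7.34 RPM at 48 h ctrl, 7.07 RPM at 240 h ctrl, 15.1 RPM at 48 h kd, 23.9 RPM at 72 h kd and 35.5 RPM at 240 h kd. Car2 was number 17 in this order (r = 0.967), Car3 number 147 (0.917), Car10 number 303 (0.879) and Car14 number 1692 (0.66). Car12 had r = -0.82.

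**Figure D4:**
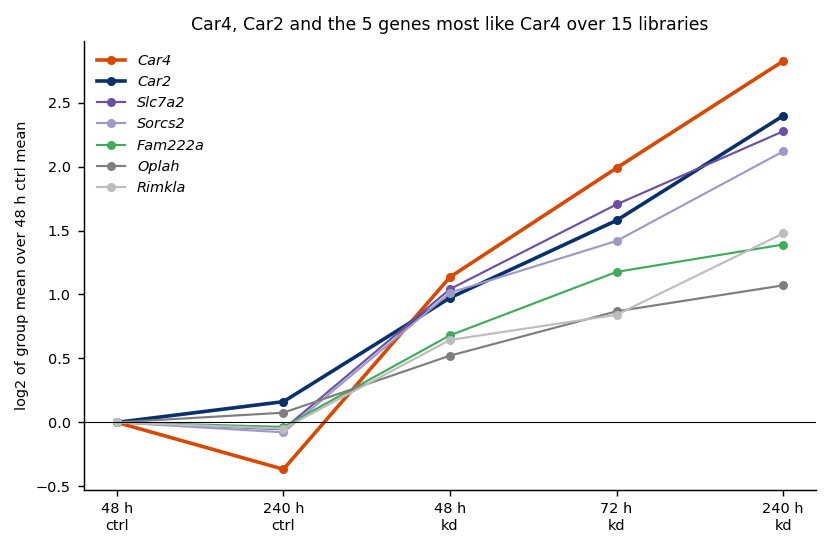
Group mean RPM relative to the 48 h ctrl mean, on a log2 axis (y), for Car4, Car2 and the 5 ranked genes with the highest Pearson's r with Car4 over 15 libraries, by group (x). All 7 lines lie near 0 at 240 h ctrl and are highest at 240 h kd, and the Car4 line starts lowest at 240 h ctrl (2.96 RPM against 3.81 RPM at 48 h ctrl) and ends highest.

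Genes that work with carbonic anhydrases were followed as 4 lists. Of 14 bicarbonate transporter genes, 7 passed the filter. Slc4a3, an anion exchanger gene, rose at 48 h (0.64 ± 0.14 SE, limma adjusted p = 0.00557), the sodium bicarbonate cotransporter gene Slc4a7 rose at 72 h (0.72 ± 0.06 SE, limma adjusted p = 6.73e-11), and the cotransporter gene Slc4a5 fell at 240 h (-0.79 ± 0.15 SE, limma adjusted p = 3e-04). Each was the 1 call among 7 genes at its time, beside 4.21% and 12% of all genes called higher at 48 h and 72 h and 7.9% called lower at 240 h. Slc4a10, under the filter, averaged 0.427 RPM at 240 h ctrl and 1.27 RPM at 240 h kd and reaches a test only through the knockdown group. The list medians were 0.10, 0.25 and 0.07. Of 14 proton and lactate transporter genes, 8 passed the filter. The lactate exporter gene Slc16a3 fell at each time, by 1.32, then 1.44, then 1.60 in log2 units (limma adjusted p = 1.1e-07, 4.66e-17 and 3.08e-12), and the sodium proton exchanger gene Slc9a5 rose at 72 h (0.76 ± 0.09 SE, limma adjusted p = 3.09e-08). These were 1 of 8 lower at each time, beside 4.88%, 9.55% and 7.9% of all genes, and 1 of 8 higher at 72 h, beside 12%. The list medians were -0.09, 0.03 and -0.20.

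Of 10 genes for enzymes that use or sense bicarbonate, 9 passed the filter. None was called at 48 h by limma or by voom, where 7 were higher and 2 lower at an unadjusted limma p under 0.05, beside 19.2% of all genes in each direction. At 72 h 3 of 9 rose, beside 12% of all genes. Cad, which starts pyrimidine synthesis, rose by 0.87, the acetyl-CoA carboxylase gene Acacb by 0.77 and the propionyl-CoA carboxylase gene Pcca by 0.74 on the log2 scale (limma adjusted p = 1.88e-16, 2.06e-11 and 1.1e-10). At 240 h none of the 8 with at least 1 RPM in both groups was called by limma or voom. Among these 8, Acaca and Cad were higher and Pcx and Mccc2 lower at an unadjusted limma p under 0.05. The shares of all genes were 26.9% higher and 25.7% lower. The carbamoyl phosphate synthetase gene Cps1 averaged 0.988 RPM at 240 h ctrl and 6.13 RPM at 240 h kd, and the soluble adenylyl cyclase gene Adcy10 averaged 0.427 and 1.52 RPM. Both reach a test only through the knockdown group, so these levels are a description. The medians were 0.21 and 0.21 over 9 genes at 48 h and 72 h and -0.08 over 8 at 240 h. Of 12 hypoxia-inducible genes, 11 passed the filter, none rose, and 5, 6 and 4 of them fell at 48 h, 72 h and 240 h, beside the 4.88%, 9.55% and 7.9% of all genes called lower. At an unadjusted limma p under 0.05, 0, 2 and 1 were higher, beside 19.2%, 34.7% and 26.9% of all genes, and 8, 7 and 7 lower, beside 19.2%, 31.6% and 25.7%, and voom called none higher. Their medians were -0.44, -0.59 and -0.47. Ndrg1 fell by 1.51, 1.60 and 0.82, the oxygen sensor gene Egln3 by 0.90, 0.59 and 1.67, and the mitophagy receptor gene Bnip3 by 1.03, 0.66 and 0.68 on the log2 scale.

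Markers of other cell types moved with the knockdown in part. The 6 neural progenitor markers summed to 57.2 to 63.9 RPM in control libraries, 74.7 to 84.9 at 48 h kd, 94.7 to 103 at 72 h kd and 124 to 127 at 240 h kd, and Sox1 rose at all 3 times. Pax6 fell at 48 h and 72 h by 1.43 and 1.71 on the log2 scale, and Nes stood at -0.44 and -0.49 there, uncalled, and rose by 0.65 at 240 h. Fabp7, Olig2 and Dcx stayed under 1 RPM in every group on average. The 6 fibroblast markers summed to 4.06 to 7.95 RPM elsewhere and to 19.6 to 24.9 RPM at 240 h kd, led by Col1a1 (15.5 RPM), while Dcn and Lum had at most 1 read in any library. The 6 erythroid markers summed to 1.61 to 3.33 RPM elsewhere and to 4.48 to 5.92 RPM at 240 h kd, where Gata1 averaged 4.53 RPM, against 0.868 RPM at 48 h ctrl and 0.935 RPM at 240 h ctrl, while Klf1 averaged 0.903 RPM at 240 h ctrl and 0.767 RPM at 240 h kd, and the globin gene Hbb-bt had 0 reads in all 15 libraries and Hba-a1 and Hbb-y at most 1. The 6 endothelial markers summed to 12.2 to 15.2 RPM in control libraries and 5.23 to 8.04 RPM in knockdown libraries, and most of this was Tek, at 11.4 and 11.3 RPM at 48 h ctrl and 240 h ctrl and at 4.17, 4.05 and 4.36 RPM at 48 h kd, 72 h kd and 240 h kd. Other endothelial markers were not lower throughout: from 240 h ctrl to 240 h kd Kdr went from 0.371 to 0.779 RPM, Tie1 from 0.373 to 0.827 RPM and Cdh5 from 0.187 to 0.313 RPM, all under the filter, and Cldn5 stood at 1.15 RPM at 48 h ctrl and 1.78 RPM at 48 h kd, uncalled. The 6 primitive endoderm markers summed to 6.76 to 8.04 RPM at 48 h ctrl, 3.56 to 4.69 RPM at 48 h kd, 4.53 to 6.55 RPM at 72 h kd, 9.30 to 9.97 RPM at 240 h ctrl and 9.56 to 10.7 RPM at 240 h kd, with Afp at 0 reads in 11 of 15 libraries. Sox7 averaged 3.08 RPM at 48 h ctrl, 0.905 RPM at 48 h kd and 0.286 RPM at 72 h kd, and it passed the filter there through the control group. At 240 h Sox7 fell by 1.18 and Gata6 rose by 1.03 on the log2 scale. The part of these markers in the course of Car2, Car3, Car4 and Car14 was not tested.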

How the data were processed

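RNA was sequenced from 15 mESC libraries in 5 groups of 3, grouped by their labels. The deposited values are FPKM per gene, which the authors computed on mm10 over the whole gene span, introns included. The submitters' processing notes name STAR 2.7.0c, R 4.0.3, DESeq2 1.30.0 and GRCm38.p6. FPKM times span gave RPM, and 100% of the values then came out as whole reads (tolerance 0.001 reads). The whole-gene depth was 11074998 to 14515300 reads, which bounds the precision of genes with few reads.

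Genes with at least 1 RPM on average over the libraries compared were tested on log2(RPM + 0.2) with limma 3.58.1 (trended prior variance, two-sided, R 4.3.3) with Benjamini-Hochberg adjustment over all genes. Fold changes are on this scale, which understates the change of low genes. The scripts were tested on simulated data for the comparisons of single groups, but not for the difference between the 240 h and 48 h effects. Values were read with Python 3.11.15. Chi-square per degree of freedom compared replicates. Annotation was taken from GENCODE for 96.5% of the listed genes.

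The members, the gene lists and the marker lists were chosen with earlier results of these data known. Named genes are all carbonic anhydrase genes, Smarcb1, neighbours within 100 kb, the 5 genes most like Car4 and, for each list, up to 3 called genes with the largest change. Alternatives were other pseudocounts, filters, scalings, voom on recovered reads, the FPKM scale, other controls, a replicate block and leaving out each library.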

Additional observations from a re-analysis of the deposited data

Results flagged for a closer look

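The knockdown effect at 240 h was compared with that at 48 h by limma's interaction test. Among genes with at least 1 RPM in every group, 1 of 5 members without Car4 and 1 of 4 other carbonic anhydrase genes passed. Both were higher, beside 5.47% higher and 5.2% lower of 15781 genes. Car10 is left out of this count, since it averaged 0.96 RPM at 48 h ctrl. The log2 difference was 1.26 for Car2 (limma adjusted p = 1.15e-08) and 0.59 for Car3 (limma adjusted p = 0.0293). In the lists of related genes, of 7 bicarbonate transporter genes, 8 proton and lactate transporter genes and 11 hypoxia-inducible genes tested, the same test passed for the transporter genes Slc4a5 (-0.89), Slc9a5 (-0.88) and Emb (0.62) and for the hypoxia-inducible genes Egln3 (-0.78) and Ndrg1 (0.69). The difference for Cps1 was 1.62, a description only, since Cps1 averaged under 1 RPM at 240 h ctrl (0.988 RPM). Groups of 3 libraries are too small to look for single outlying samples in this way.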

How the results depend on the processing

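Of 714 values of single members recomputed under alternatives, 694 stayed the same, 9 crossed a threshold (7 lost and 2 gained a call), 3 values of Car4 moved by more than 1 SD and 8 reversed. The cause of these changes was not tested. Staying the same meant keeping the direction and the side of the thresholds. For Car4 in knockdown comparisons, which has no call, it meant keeping the direction and moving by less than 1 SD. All reversed values were uncalled: Car11 at 72 h was 0.071 against 240 h ctrl and 0.012 against both control groups, and in the control comparison single libraries left out gave 0.048 and 0.039 for Car12 (range -0.18 to 0.048), -0.019, -0.095 and -0.0028 for Car13 (range -0.095 to 0.14) and 0.14 for Car11 (range -0.28 to 0.14). On the FPKM scale Car4 at 240 h was 2.89. No alternative moved the median of all genes by over 0.1. With a filter of 5 RPM the counts of called genes at 48 h, 72 h, 240 h, between controls, from 48 h kd to 72 h kd and for the difference of effects were 787, 2037, 1463, 89, 1094 and 1100, and on the FPKM scale 456, 1548, 1016, 54, 857 and 664, beside 1423, 3363, 2713, 211, 1954 and 1683. At 48 h these settings tested 12049 and 11420 genes, and the FPKM setting also changed the scale and the pseudocount; the cause was not tested. The control count was also 113 with a pseudocount of 1 and 54 without a trend. With voom on recovered reads the counts were 1485, 3642, 2998, 220, 2101 and 1708. Leaving out 1 library gave 1191 to 1506, 3316 to 3412, 2524 to 2740, 96 to 291, 1751 to 2084 and 1455 to 1727 calls; the control count was lowest without 48 h ctrl replicate 3 (96), and leaving out 48 h ctrl replicate 2 gave 126. Deviations of same-numbered libraries from their group means correlated with r from -0.24 to 0.20. With 3 libraries a group these values cannot show whether replicate numbers pair the libraries. With the replicate block the counts were 1359, 3359, 2728, 308, 2005 and 1660. Car7, with 3 to 18 reads a library, and Car8, with 2 to 16, are limited by depth.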
